A study of Mus musculus with 27 samples.

Results

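The 31 genes described here encode the enzymes that make cholesterol and fatty acids in the cytosol and endoplasmic reticulum, the proteins that control their transcription, and a carrier that moves cholesterol between membranes. They were chosen by name from the 51826 gene identifiers counted in each library, and all 31 were found and passed the filter on low counts in every fit. They comprise 7 enzymes of the mevalonate pathway, 11 enzymes that turn farnesyl diphosphate into cholesterol, 4 regulators of the SREBP transcription factors, the sterol carrier Stard4, 3 enzymes of fatty acid synthesis, and 5 desaturases and elongases. Expression was measured by sequencing total RNA, depleted of ribosomal RNA, of E14 cells, a line of mouse embryonic stem cells, and of 2 knockout lines of that background. The groups were wild type, Quaking KO and Sam68 KO, each taken as undifferentiated cells (day 0) and after 3 or 10 days as embryoid bodies, the clumps in which stem cells are left to differentiate. Each of the 9 groups held 3 biological replicates, which gave 27 libraries. The series asks what STAR proteins, a family that binds RNA, do in early mammalian development. Each knockout was 1 line, so a difference between clones and an effect of the knockout cannot be told apart.

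Cholesterol synthesis begins with acetyl-CoA, runs through mevalonate and isoprenoid units to squalene, and ends in a series of reductions, demethylations and isomerisations of the sterol rings. Fatty acid synthesis starts from the same acetyl-CoA, and its saturated product is then lengthened and given double bonds for use in membranes. Both routes are switched on by SREBP proteins, which are held in the endoplasmic reticulum by Scap and Insig proteins while sterol is plentiful. When sterol is scarce, Scap escorts SREBP to the Golgi, where it is cut and released to the nucleus. SREBP-2, the product of Srebf2, is best known for acting on sterol genes, and SREBP-1, the product of Srebf1, for acting on fatty acid genes. Insig1 is itself a target of SREBP and closes a feedback loop.

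The libraries held 56461674 to 77257496 counts, and the mitochondrial ribosomal RNA mt-Rnr2 took 5.64 to 14.77% of them. The Qk transcript, which encodes Quaking, was at 239, 236 and 231 CPM (counts scaled to an equal library size) in wild type and at 168, 149.7 and 159 CPM in the Quaking KO line at day 0, and it was also lower in that line in every library at days 3 and 10. The Khdrbs1 transcript, the message for Sam68, was still present in the libraries labelled Sam68 KO. It was at 97.4, 90.9 and 88.8 CPM there and at 98.5, 101 and 97.7 CPM in wild type at day 0, at 91.6, 94.6 and 106 against 151, 166 and 161 CPM at day 3, and at 97.9, 101 and 100.5 against 146, 98 and 100.3 CPM at day 10. The line is therefore called the Sam68-labelled line below. Which bases the knockouts removed is not given in the sources used here, so a transcript level says little about the protein. The library numbers of the Sam68-labelled samples lie apart from those of the other lines, and a library batch and the label cannot be told apart. Replicate 1 of wild type at day 10 stood apart from replicates 2 and 3 for several genes, and values without it are given where it matters. In bulk RNA, a smaller share of cells expressing a gene and less of its RNA per cell cannot be told apart. Differences are log2 fold changes ± their standard error (SE) from edgeR's quasi-likelihood test, p-values are adjusted by Benjamini and Hochberg over all genes tested, with an adjusted p below 0.05 taken as a call. CPM are given as mean ± SD over 3 libraries.

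The promoters of these genes were examined because most of the genes moved together. Windows of 300 bases, from 250 before to 50 after each RefSeq start on GRCm38.p6, were found for 24 of the 31 genes. SREBP is known to act at sterol promoters together with NF-Y, whose site, the NF-Y box, was searched as CCAAT on both strands. It stood in the windows of 79.2% of the 24 genes and of 41.06% of all 27025 genes. The GC box, bound by Sp1 and searched as GGGCGG on both strands, stood in those of 83.3% against 38.2%, and the palindromic E-box CACGTG in those of 20.8% against 8.09%. The sterol regulatory element was searched as TCACNCCAC on both strands. It stood in 1 of the 24 genes, Hmgcs1, at 137 bases before the start, and in 1.44% of all genes. The windows of 4 genes whose expression is followed below are printed here: 2 that peaked at day 3 in all lines (Hmgcs1 and Fasn) and 2 whose course differed in the Sam68-labelled line (Insig1 and Ebp). Capitals mark the NF-Y box on either strand and, in Hmgcs1, the sterol regulatory element. In Fasn 2 of the 3 matches overlap. A match is a description of the letters and not a bound site. The 27025 genes were taken whether expressed here or not, while the members are all expressed, so the shares are not of like genes. Other forms of the sterol regulatory element were not searched.
Hmgcs1 (chr13:119690101-119690400, plus strand): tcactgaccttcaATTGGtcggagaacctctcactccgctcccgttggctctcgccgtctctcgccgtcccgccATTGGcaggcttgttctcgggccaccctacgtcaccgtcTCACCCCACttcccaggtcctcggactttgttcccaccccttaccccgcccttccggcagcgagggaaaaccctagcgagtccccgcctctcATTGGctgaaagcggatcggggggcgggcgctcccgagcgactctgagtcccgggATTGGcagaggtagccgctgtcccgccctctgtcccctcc
Fasn (chr11:120824498-120824797, minus strand): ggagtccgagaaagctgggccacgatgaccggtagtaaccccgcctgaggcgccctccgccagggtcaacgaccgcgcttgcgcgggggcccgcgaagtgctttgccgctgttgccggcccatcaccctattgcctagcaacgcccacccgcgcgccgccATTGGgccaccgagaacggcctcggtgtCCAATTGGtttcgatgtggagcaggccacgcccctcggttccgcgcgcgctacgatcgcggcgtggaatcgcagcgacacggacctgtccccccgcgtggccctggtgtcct
Insig1 (chr5:28071162-28071461, plus strand): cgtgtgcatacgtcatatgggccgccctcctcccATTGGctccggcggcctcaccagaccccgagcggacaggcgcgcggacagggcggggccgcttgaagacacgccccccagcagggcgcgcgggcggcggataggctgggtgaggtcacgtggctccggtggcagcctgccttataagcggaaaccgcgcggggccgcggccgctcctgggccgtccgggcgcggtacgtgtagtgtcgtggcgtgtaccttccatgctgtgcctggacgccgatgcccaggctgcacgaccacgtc
Ebp (chrX:8193463-8193762, minus strand): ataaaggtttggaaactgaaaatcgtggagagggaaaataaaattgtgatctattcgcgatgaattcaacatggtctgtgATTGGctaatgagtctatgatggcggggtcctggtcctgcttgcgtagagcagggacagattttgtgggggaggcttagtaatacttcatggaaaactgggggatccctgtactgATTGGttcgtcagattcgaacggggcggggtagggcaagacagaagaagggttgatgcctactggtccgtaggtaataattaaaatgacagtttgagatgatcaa
The Ebp window holds 2 matches to the NF-Y box, both on the opposite strand, the Insig1 window 1 and the Hmgcs1 window 4.

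In wild-type cells all 31 genes rose between the stem cell state and day 3. Summed over the 31 genes, wild-type libraries held 2558 ± 53.0 CPM at day 0, 6195 ± 61.4 CPM at day 3 and 3606 ± 90.3 CPM at day 10. The largest rises were those of the stearoyl-CoA desaturases Scd1 and Scd2 and of the polyunsaturated fatty acid desaturase Fads2, and the smallest was that of the SREBP escort Scap. Between days 3 and 10 all 18 enzymes of cholesterol synthesis fell. In the fatty acid synthesis enzymes Fasn, Acaca and Acly the levels at day 10 were below those of the stem cells. Scd2, Fads1, Stard4 and Insig1 kept rising.

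At day 3 against day 0 in wild type, 31 of 31 genes were called higher, where 30.8% of the 21060 genes tested were. Their median log2 fold change was 1.35, beside 0.01 for all genes tested. Scd1 rose by 2.69 ± 0.09 (adjusted p = 1.9e-11), Fads2 by 2.63 ± 0.08 (adjusted p = 1e-11) and Scd2 by 2.52 ± 0.07 (adjusted p = 3.6e-12). At day 10 against day 3, 27 were called lower and 4 higher, beside 36.5% and 39.6% of all genes, and the median was -0.96. The 4 that rose were Fads1, at 0.48 ± 0.07 (adjusted p = 1.7e-05), Stard4, at 0.42 ± 0.15 (adjusted p = 0.018), Scd2, at 0.28 ± 0.06 (adjusted p = 0.0014), and Insig1, at 0.21 ± 0.08 (adjusted p = 0.029). Stard4 stood at 0.18 without wild-type day 10 replicate 1. The call of Insig1 was lost without wild-type day 10 replicate 2 (0.10), day 3 replicate 2 (0.18) or day 3 replicate 3 (0.21). At day 10 against day 0, 19 were called higher and 6 lower, beside 41.4% and 39.4% of all genes. The 6 lower were Elovl6, Acly, Fasn, Acaca, Idi1 and Scap. The call of Scap, -0.17 ± 0.07, was lost in 4 of the 6 fits that left out a wild-type day 0 or day 10 library: day 0 replicate 1 (-0.175), day 0 replicate 3 (-0.14), day 10 replicate 1 (-0.12) and day 10 replicate 2 (-0.15). It was also lost with RLE scaling (-0.13), with no filter on low counts (-0.165) and in DESeq2 (-0.13).

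**Figure D1:**
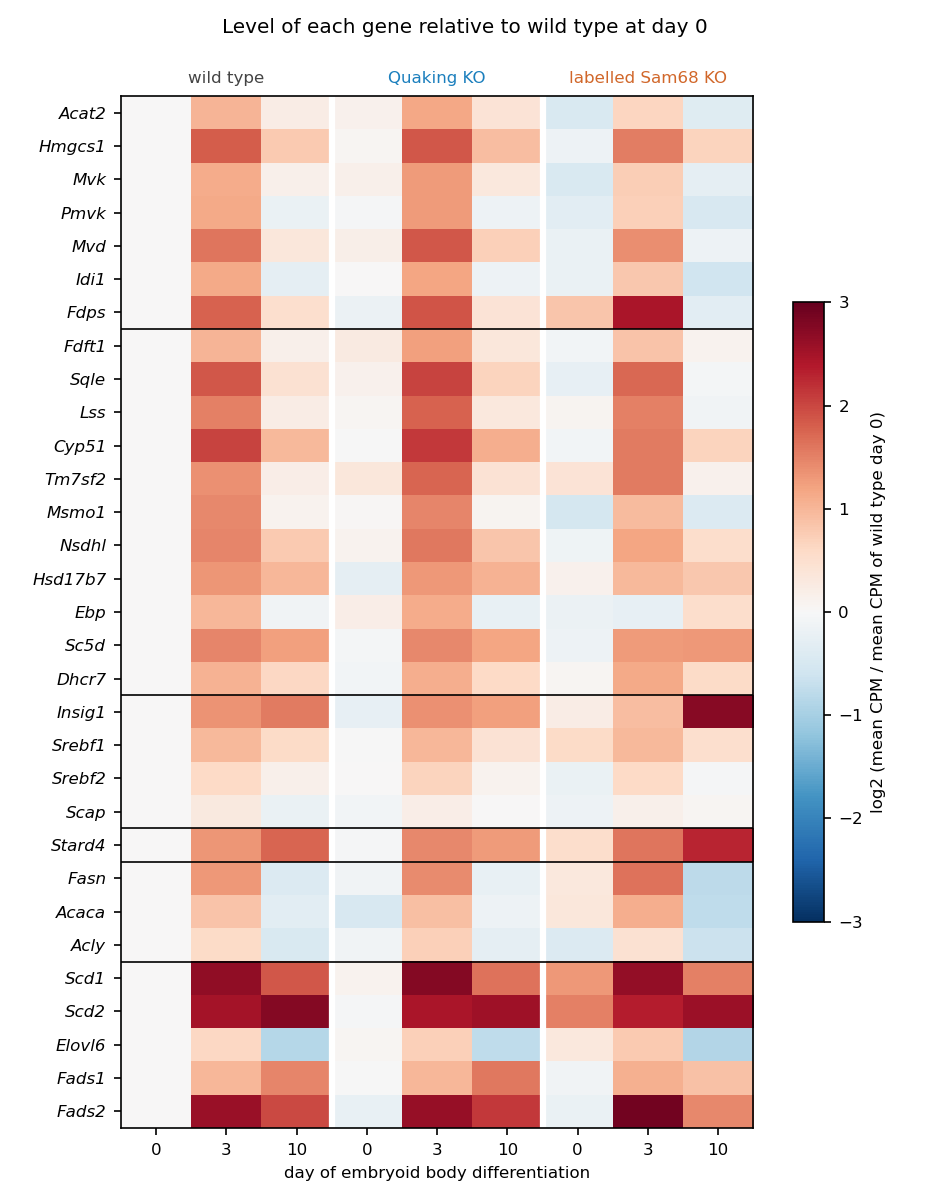
Level of each of the 31 genes (rows, ordered by role and separated by black lines) in each line and day (columns), as the log2 ratio of the mean CPM of 3 libraries to the wild-type day 0 mean. Day 3 is above wild-type day 0 for every gene in wild type and Quaking KO and for every gene but Ebp in the Sam68-labelled line. Among the genes high at day 10 are Insig1, Stard4, Scd2, Scd1 and Fads2 in all lines, and Fads1 in wild type and Quaking KO.

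The knockout lines were compared over the same days to see whether the course depended on the lines. The Quaking KO line repeated the rise of day 3 and the fall of day 10. In it, 31 genes were called higher at day 3 than at day 0, beside 34.2% of all genes. From day 3 to day 10, 27 were lower and 2 higher, beside 37% and 41.1%. The higher ones were Fads1, at 0.63 ± 0.06 (adjusted p = 6.3e-07), and Scd2, at 0.15 ± 0.06 (adjusted p = 0.035). Without Quaking KO day 3 replicate 3 the value of Scd2 was 0.09 and no longer called, and its call was also lost without day 3 replicates 1 (0.13) or 2 (0.11), without day 10 replicates 1 (0.11) or 3 (0.15), and among protein-coding genes only (0.09). In the Sam68-labelled line 30 genes were called higher at day 3 than at day 0, beside 37%. The exception was Ebp, at -0.09 ± 0.05 (adjusted p = 0.12), which was called lower among protein-coding genes only. Between days 3 and 10, 25 were lower and 4 higher in that line, beside 42.5% and 43.5%. The higher ones were Insig1, at 1.84 ± 0.04 (adjusted p = 1e-16), Ebp, at 0.80 ± 0.05 (adjusted p = 1.9e-10), Stard4, at 0.67 ± 0.04 (adjusted p = 3.8e-10), and Scd2, at 0.24 ± 0.04 (adjusted p = 1.5e-05). Among protein-coding genes only, the value of Scd2 was 0.05 and not called.

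**Figure D2:**
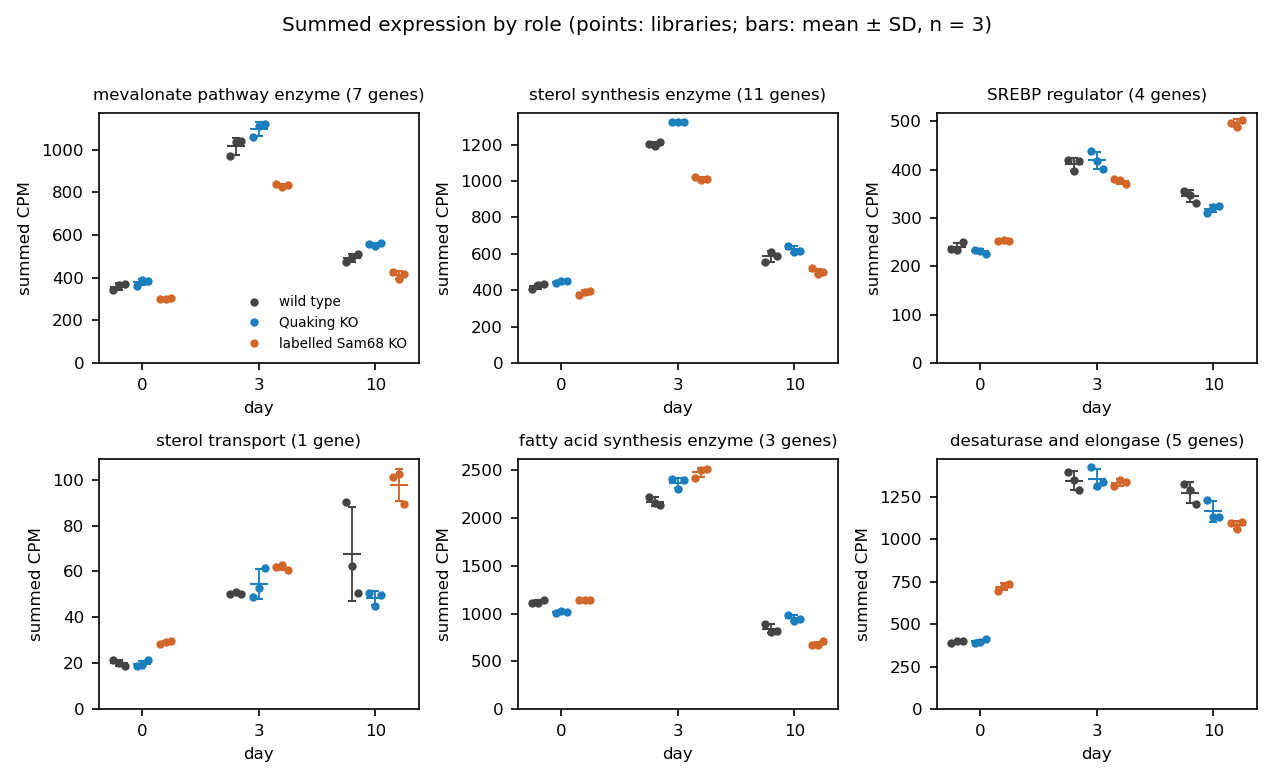
Summed CPM of the genes of each role (panels) by day, with 1 point per library and bars for the mean ± SD of 3 libraries of wild type (grey), Quaking KO (blue) and the Sam68-labelled line (orange). The sterol enzymes are highest at day 3 in all lines, and the desaturases and elongases of the Sam68-labelled line stand at 719 ± 20.6 CPM at day 0, where wild type stands at 396 ± 5.76.

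Differences of the Quaking KO line from wild type were small in size. At day 0, 6 of the 31 genes were higher and 6 lower, beside 19.4% and 20.3% of all genes, so the members' shares were near the background. The higher ones were Tm7sf2, at 0.34 ± 0.06 (adjusted p = 0.00035), Fdft1, at 0.26 ± 0.04 (adjusted p = 1e-05), Ebp, at 0.18 ± 0.05 (adjusted p = 0.0036), Mvd, at 0.16 ± 0.05 (adjusted p = 0.022), Sqle, at 0.11 ± 0.04 (adjusted p = 0.021), and Acat2. All of them are enzymes of cholesterol synthesis, as are 18 of the 31 members. Of those 18, 6 were higher, 1 was lower and 11 were not called. The lower ones were Acaca, at -0.50 ± 0.03 (adjusted p = 2.9e-10), Hsd17b7, at -0.27 ± 0.06 (adjusted p = 0.00095), Insig1, at -0.26 ± 0.03 (adjusted p = 7.4e-06), Fads2, at -0.23 ± 0.06 (adjusted p = 0.0048), Acly, at -0.12 ± 0.03 (adjusted p = 0.0024) and Fasn. The calls of Mvd and Sqle were lost without Quaking KO day 0 replicate 2 (0.09 and 0.10), without wild-type day 0 replicates 1 (0.15 and 0.10) or 2 (0.13 and 0.10), and with a replicate block on the 6 libraries compared (0.15 and 0.11). At day 3, 7 genes were higher and 0 lower, beside 3.08% of all genes higher. They were Tm7sf2, at 0.38 ± 0.07 (adjusted p = 0.0043), Mvd, at 0.27 ± 0.04 (adjusted p = 0.00071), Lss, at 0.26 ± 0.04 (adjusted p = 0.0014), Fdft1, at 0.21 ± 0.04 (adjusted p = 0.0025), Sqle, at 0.18 ± 0.04 (adjusted p = 0.0074), Mvk and Acly. The number called ranged from 4, without wild-type day 3 replicate 2, to 8 when each library was left out in turn, and was 12, all higher, with a replicate block on the 6 libraries compared. In both lines replicate 1 stood apart at this day in its share of mt-Rnr2, at 9.53% for wild type and 10.96% for Quaking KO, where replicates 2 and 3 had 5.64 to 6.54%, and the part of this in the result was not tested. At day 10 only Mvd was called in this fit, at 0.34 ± 0.07 (adjusted p = 0.011), beside 4.96% of all genes, while 10 members had an unadjusted p under 0.05 and DESeq2 called 4 higher and 4 lower. In simulated data the day 10 fit called 1.3% of 1.2-fold changes and the day 0 fit 48.1%, so the counts at these days cannot be set side by side. Leaving out Quaking KO day 10 replicate 2 ended the call of Mvd (0.32). The count was 4 without wild-type day 10 replicate 1 or 3 and 2 without Quaking KO day 10 replicate 3. Mvd, mevalonate diphosphate decarboxylase, was thus higher at all 3 days, by 0.16, 0.27 and 0.34.

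The Sam68-labelled line differed from wild type more widely. As stem cells it had more desaturase transcripts, more Srebf1 and Stard4, and less of several mevalonate enzymes. At day 3 Ebp was lower and most sterol enzymes were lower. At day 10 Insig1 was higher, and most enzymes of both routes were lower. At day 0, 13 genes were higher and 9 lower, beside 36.5% and 37.9% of all genes, shares that were near the background for the higher genes. At day 3, 7 were higher and 18 lower, beside 36% and 37.1%. Scaled and tested among protein-coding genes only, 9 were higher and 13 lower at day 3. At day 10, 4 were higher and 19 lower, beside 22.8% and 27.8%. The medians were -0.03, -0.13 and -0.31 at days 0, 3 and 10, beside -0.01, -0.002 and -0.04 for all genes.

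**Figure D3:**
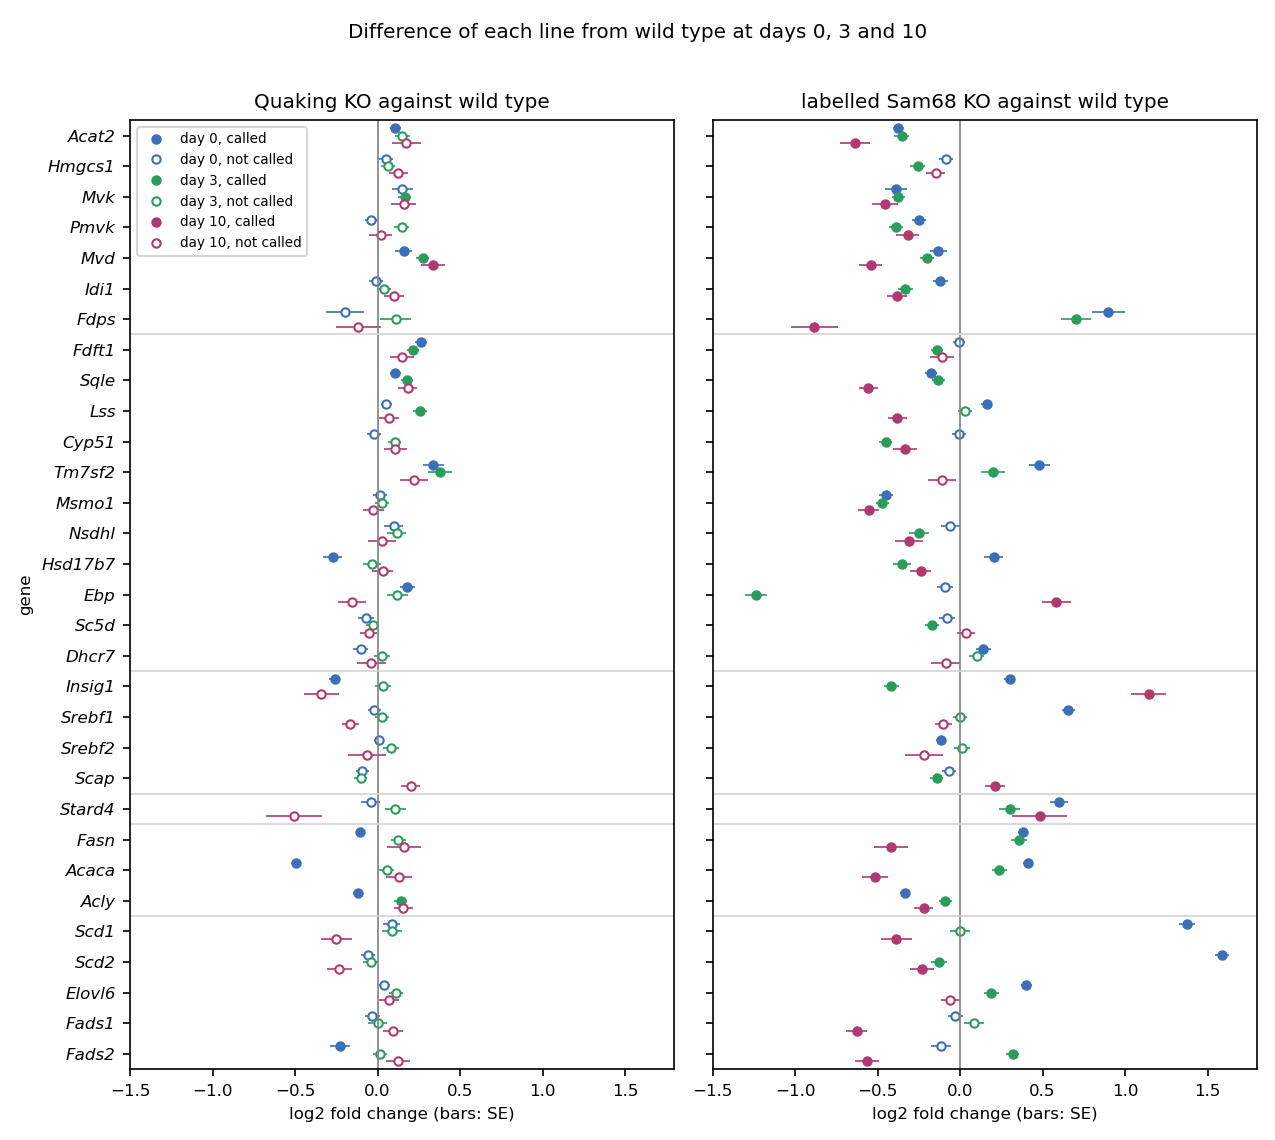
Log2 fold change (horizontal axis, bars are SE) of each gene (rows, ordered by role) in the Quaking KO line (left) and the Sam68-labelled line (right) against wild type at days 0, 3 and 10. Filled points were called and open points were not; on the right the points farthest from 0 are those of Scd2 at day 0 (1.59 ± 0.04), Scd1 at day 0 (1.38 ± 0.05), Ebp at day 3 (-1.24 ± 0.07) and Insig1 at day 10 (1.14 ± 0.11), and the point farthest from 0 on the left is Stard4 at day 10 (-0.51).

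The mevalonate pathway enzymes supply isoprenoid units, and Hmgcs1, the HMG-CoA synthase that condenses acetoacetyl-CoA with acetyl-CoA, was the most abundant of them. Hmgcs1 was at 149, 172 and 162 CPM at day 0, 531, 588 and 574 at day 3 and 281, 267 and 284 at day 10 in the 3 wild-type replicates. In the Quaking KO line it was at 159, 169 and 177, then 572, 600.5 and 598, then 314, 296 and 312 CPM. The Sam68-labelled libraries held 145, 141 and 147, 473, 463 and 469 and 269, 247 and 258 CPM in the same order. The 3 days did not overlap in any line, and at day 3 the Sam68-labelled libraries lay below all others. Its rise at day 3 was 1.84 ± 0.07 in wild type, 1.83 ± 0.05 in Quaking KO and 1.69 ± 0.04 in the Sam68-labelled line, and its difference in that line at day 3 was -0.26 ± 0.04 (adjusted p = 9.5e-05). Acat2, the thiolase of the opening step, averaged 85.2 ± 3.59, 173 ± 7.61 and 99.6 ± 12 CPM at days 0, 3 and 10 in wild type, 92.5 ± 2.93, 192 ± 10.4 and 114 ± 3.53 in Quaking KO and 62.4 ± 1.12, 134 ± 2.76 and 66 ± 5.46 in the Sam68-labelled line. It was lower in the Sam68-labelled line at every day, at -0.37 ± 0.03, -0.35 ± 0.05 and -0.64 ± 0.09 (adjusted p = 0.00013). Of the 50-base windows of Acat2, 39.1% also occur in other genes, chiefly Acat3, which was under 1 CPM in every library.

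The kinases Mvk and Pmvk, which phosphorylate mevalonate in turn, followed the same course. Mvk averaged 20.0 ± 2.26, 43.3 ± 1.40 and 22.1 ± 2.51 CPM in wild type over the 3 days, 22.3 ± 1.41, 48.5 ± 0.99 and 25 ± 0.89 in Quaking KO and 14.5 ± 0.65, 33.1 ± 0.13 and 16.6 ± 0.18 in the Sam68-labelled line. Pmvk averaged 31.4 ± 0.98, 68.5 ± 0.89 and 27.4 ± 2.47 CPM in wild type, 30.8 ± 0.91, 76 ± 4.61 and 28.2 ± 0.61 in Quaking KO and 25.1 ± 1.18, 51.9 ± 1.24 and 22.6 ± 0.92 in the Sam68-labelled line. Both were lower in the Sam68-labelled line at every day, Mvk at -0.39 ± 0.07, -0.37 ± 0.04 and -0.46 ± 0.08, and Pmvk at -0.25 ± 0.04, -0.39 ± 0.05 and -0.32 ± 0.07. Mvd, which removes the carboxyl group, averaged 33.6 ± 1.95, 102 ± 3.73 and 42.8 ± 3.31 CPM in wild type, 37.8 ± 2.89, 123 ± 3.90 and 54.8 ± 2.02 in Quaking KO and 29.1 ± 1.32, 87.8 ± 1.96 and 30.3 ± 1.87 in the Sam68-labelled line. It was called higher in Quaking KO at each of the 3 days, its calls at days 0 and 10 being lost without single libraries. In the Sam68-labelled line it was called lower at each day, at -0.13 ± 0.05, -0.20 ± 0.04 and -0.54 ± 0.07. How the Mvd values of that line depended on other settings or single libraries was not read. Idi1, the isopentenyl diphosphate isomerase, averaged 25.2 ± 0.21, 55.8 ± 2.33 and 20.9 ± 0.76, 25.2 ± 1.08, 57.4 ± 0.07 and 22.8 ± 0.77 and 22 ± 0.93, 44 ± 2.02 and 16.6 ± 0.34 CPM over the days in wild type, Quaking KO and the Sam68-labelled line. It was the only 1 of the 7 to end below its day 0 level by a call in wild type, at -0.24 ± 0.06 (adjusted p = 0.003), and 25.3% of its windows occur elsewhere. Fdps, the farnesyl diphosphate synthase (chr3:89093588-89101959), was counted at only 2.56 ± 0.29, 8.71 ± 0.82 and 3.65 ± 0.24 CPM in wild type, 2.25 ± 0.02, 9.42 ± 1.05 and 3.42 ± 0.53 in Quaking KO and 4.53 ± 0.40, 14.1 ± 1.12 and 2.04 ± 0.23 in the Sam68-labelled line. It moved in the Sam68-labelled line by 0.90 ± 0.10 (adjusted p = 1.7e-07), 0.70 ± 0.09 (adjusted p = 5.2e-06) and -0.88 ± 0.14 (adjusted p = 0.00034), the last against the direction of the other days. These values are uncertain, because 26.2% of its windows occur in other genes and the gene model Gm43738 on the same strand overlaps 26.7% of its exon length.

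Over the 7 mevalonate enzymes the summed level was 359 ± 15.3, 1015 ± 39.4 and 494 ± 18.5 CPM at days 0, 3 and 10 in wild type and 302 ± 4.22, 833 ± 6.67 and 412 ± 17.3 CPM in the Sam68-labelled line. Against wild type, 5 of them were lower and 1 higher at day 0 in that line, beside 37.9% and 36.5% of all genes. At day 3, 6 were lower and 1 higher, beside 37.1% and 36%, and at day 10, 6 were lower, beside 27.8%. The 1 that was higher at days 0 and 3 was Fdps, and Hmgcs1 was the 1 not called at day 10. In Quaking KO the sum was 379 ± 14.1, 1097 ± 34.2 and 556 ± 8.78 CPM.

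Squalene epoxidase, encoded by Sqle, adds the oxygen on which the sterol rings close and is a rate-controlling step. Sqle was at 56.3, 57.4 and 59.6 CPM at day 0, 212, 204 and 210.4 at day 3 and 75.1, 80.4 and 82.3 at day 10 in wild type. In Quaking KO it was at 62.2, 63.5 and 62.4, 237, 237 and 237 and 97.7, 88.7 and 88 CPM. Levels in the Sam68-labelled line were 46.2, 50.1 and 49.4, 191, 187 and 189 and 56.5, 53.7 and 56.4 CPM. At all 3 days the Quaking KO libraries were the highest and the Sam68-labelled ones the lowest, without overlap. The differences of the Sam68-labelled line were -0.17 ± 0.04 (adjusted p = 0.00024), -0.13 ± 0.04 (adjusted p = 0.005) and -0.56 ± 0.06 (adjusted p = 1.6e-05), and that of Quaking KO at day 10 was 0.18 ± 0.06 (adjusted p = 0.064), which was not called. Leaving out wild-type day 3 replicate 2 ended its call in Quaking KO at day 3 (0.16). In the Sam68-labelled line at day 0 Sqle stood at -0.116 among protein-coding genes only, still called. How its day 3 value in that line depended on other settings was not read.

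The enzymes next to Sqle in the pathway rose with it. Fdft1, squalene synthase, averaged 75.1 ± 3.38, 152 ± 2.99 and 84 ± 8.11 CPM over the 3 days in wild type, 90.7 ± 2.73, 176 ± 1.90 and 94.7 ± 4.69 in Quaking KO and 71 ± 2.27, 137 ± 2.67 and 80.1 ± 3.65 in the Sam68-labelled line. Lss, lanosterol synthase, averaged 63.4 ± 1.29, 179 ± 7.05 and 74.1 ± 3.36 CPM in wild type, 66.3 ± 0.31, 215 ± 5.53 and 78.9 ± 2.10 in Quaking KO and 67.3 ± 1.95, 182 ± 3.26 and 58.7 ± 2.43 in the Sam68-labelled line. Lss passed from higher at day 0, 0.16 ± 0.03, to lower at day 10, -0.38 ± 0.06, in the Sam68-labelled line. Cyp51, the lanosterol demethylase, averaged 58.7 ± 3.08, 239 ± 5.85 and 115 ± 11.2 CPM in wild type, 58.2 ± 1.56, 257 ± 4.63 and 125 ± 2.21 in Quaking KO and 55.4 ± 3.24, 173 ± 2.85 and 93.8 ± 4.57 in the Sam68-labelled line. Among the sterol enzymes it had the largest rise at day 3 in wild type, 2.05 ± 0.08 (adjusted p = 6.9e-11), and in Quaking KO, 2.16 ± 0.04, and it was lower in the Sam68-labelled line at day 3, -0.45 ± 0.04 (adjusted p = 5.5e-08). Fdft1 shares 26.5% of its windows with other genes, chiefly the lysosomal protease gene Ctsb, which overlaps it on the opposite strand and stood at 82.6, 87.5 and 93.5 CPM at day 0 and 419, 529 and 553 CPM at day 10 in wild type. The Fdft1 level is uncertain to that extent.

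The later steps strip methyl groups from the ring system and move its double bond. Tm7sf2, a sterol reductase, averaged 9.54 ± 0.49, 24.5 ± 2.91 and 11 ± 1.13 CPM over the days in wild type, 12.1 ± 0.98, 31.9 ± 1.43 and 13 ± 0.63 in Quaking KO and 12.6 ± 0.56, 27.9 ± 1.53 and 10.5 ± 0.36 in the Sam68-labelled line. It had the largest rise over wild type in Quaking KO at days 0 and 3, and in the Sam68-labelled line it went against most sterol enzymes at day 3, at 0.20 ± 0.07 (adjusted p = 0.022). That last call ended without wild-type day 3 replicates 2 (0.14) or 3 (0.14) and without Sam68-labelled day 3 replicates 1 (0.16) or 2 (0.20), and 9.9% of its windows occur in Vps51. Msmo1, the methylsterol monooxygenase, averaged 70.7 ± 4.53, 191 ± 4.37 and 75.6 ± 5.71 CPM in wild type, 71.9 ± 1.79, 195 ± 6.80 and 75.3 ± 3.08 in Quaking KO and 49.1 ± 2.46, 137 ± 2.83 and 53 ± 2.09 in the Sam68-labelled line. It was lower in the Sam68-labelled line by a like amount at each day, -0.45 ± 0.04, -0.47 ± 0.04 and -0.55 ± 0.06 (adjusted p = 3.4e-05). Nsdhl, a dehydrogenase acting with Msmo1, averaged 13.7 ± 0.71, 37.6 ± 1.41 and 23.6 ± 2.89, 14.7 ± 0.67, 40.8 ± 2.75 and 24.4 ± 0.32 and 12.5 ± 0.84, 31.3 ± 2.06 and 19.6 ± 1.12 CPM over the days in wild type, Quaking KO and the Sam68-labelled line. Hsd17b7, the keto-sterol reductase of the same complex, averaged 11.5 ± 0.47, 28.8 ± 1.19 and 23 ± 0.78, 9.59 ± 0.45, 28.2 ± 1.30 and 23.8 ± 1.44 and 12.6 ± 0.45, 22.4 ± 1.06 and 20.1 ± 0.60 CPM in the same order of lines. Its difference in the Sam68-labelled line was 0.20 ± 0.06 at day 0 and -0.35 ± 0.05 at day 3, so the 2 days had opposite signs. Sc5d, a sterol desaturase, averaged 22.5 ± 1.57, 62.2 ± 1.05 and 52.4 ± 2.54, 21.6 ± 0.75, 61 ± 0.94 and 51.2 ± 0.37 and 20.2 ± 0.33, 54.9 ± 2.12 and 55.3 ± 1.64 CPM in that order. Dhcr7, the reductase whose product is cholesterol, averaged 19.6 ± 0.35, 40.7 ± 1.79 and 30.1 ± 3.63, 18.4 ± 0.49, 41.5 ± 1.57 and 29.8 ± 0.89 and 20.5 ± 0.91, 43.2 ± 1.44 and 29.2 ± 1.28 CPM. Sc5d and Dhcr7 kept more of their day 3 level than most enzymes, with falls at day 10 of -0.24 ± 0.07 and -0.43 ± 0.08 in wild type.

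Ebp, the sterol isomerase (chrX:8185329-8193512, minus strand), was the sterol enzyme that departed most from the shared course. In wild type it was at 19.1, 19.8 and 19 CPM at day 0, 36, 41.1 and 38.4 at day 3 and 16.3, 19.3 and 18.5 at day 10. The Quaking KO libraries held 23.1, 21 and 22.1, 37.5, 45.5 and 42.6 and 15, 16.5 and 17.8 CPM. The Sam68-labelled line had 17, 17.4 and 17.2, 16.8, 16.4 and 15.4 and 27.5, 29.6 and 26.5 CPM. The Sam68-labelled libraries thus lacked the day 3 peak, lying below every library of the other lines at day 3 and above every one at day 10. The differences from wild type were -0.09 ± 0.05 at day 0, -1.24 ± 0.07 (adjusted p = 6.1e-10) at day 3 and 0.58 ± 0.09 (adjusted p = 0.0002) at day 10. The change from day 0 to day 3 differed between the Sam68-labelled line and wild type by -1.12 ± 0.07 (adjusted p = 1.9e-10), and the change from day 3 to day 10 by 1.90 ± 0.10 (adjusted p = 1.1e-08). None of its 50-base windows occurs in another annotated gene.

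Among the 4 regulators, Insig1 (chr5:28071363-28078662) changed most. In wild type it was at 40.9, 40.9 and 42.8 CPM at day 0, 108, 102 and 107 at day 3 and 111, 139 and 116 at day 10. Levels in Quaking KO were 34.5, 35.6 and 34.8, 112, 109.7 and 103 and 84.2, 98.8 and 110.1 CPM. The Sam68-labelled libraries held 47.6, 49.3 and 48.9, 83, 75.8 and 76.7 and 277, 271 and 285 CPM. At day 10 the Sam68-labelled libraries were far above all others, without overlap, while at day 3 they were the lowest. The differences from wild type were 0.30 ± 0.03 (adjusted p = 2e-07), -0.42 ± 0.05 (adjusted p = 1e-06) and 1.143 ± 0.11 (adjusted p = 7.6e-06) at days 0, 3 and 10, the last at 1.085 without wild-type day 10 replicate 1. At day 10, 19 members were lower in this line than in wild type, beside 27.8% of all genes. A link between their levels and that of Insig1 was not tested.

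The SREBP proteins themselves are made from Srebf1 and Srebf2. Srebf1 was at 46.7, 44.3 and 49.5 CPM at day 0, 94.9, 87.7 and 93.8 at day 3 and 70.9, 67.3 and 69.7 at day 10 in wild type. In Quaking KO it was at 47.1, 47.7 and 44.8, 96.8, 92.3 and 92.7 and 62.6, 64 and 61.9 CPM. Levels in the Sam68-labelled line were 69.4, 71.1 and 69.8, 91.5, 91.8 and 90.8 and 65.8, 65 and 69.1 CPM. The lines overlapped at day 3, and only at day 0 did the Sam68-labelled line stand clear of both others, at 0.66 ± 0.04 (adjusted p = 2.5e-11) against wild type. Srebf1 rose at day 3 by 1.01 ± 0.06 (adjusted p = 8.7e-09) in wild type, 1.03 ± 0.04 in Quaking KO and 0.38 ± 0.03 in the Sam68-labelled line, and fell at day 10, at -0.41 ± 0.06, -0.54 ± 0.04 and -0.44 ± 0.03 as log2 fold changes.

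Srebf2 had a smaller range. It was at 92.8, 94.3 and 97.6 CPM at day 0, 146, 140.1 and 144 at day 3 and 128, 92.8 and 93 at day 10 in wild type. The Quaking KO libraries held 97.1, 95.5 and 95.5, 162, 152 and 142 and 107, 101 and 96.8 CPM. The Sam68-labelled line had 81.5, 84.2 and 83.6, 144, 147 and 139 and 98, 90.5 and 89.8 CPM. All lines rose at day 3, by 0.63 ± 0.10, 0.68 ± 0.05 and 0.78 ± 0.04, and replicate 1 of wild type at day 10 lay above all other day 10 libraries. The fall from day 3 to day 10 was -0.45 ± 0.10 in wild type, -0.60 without that library, -0.54 ± 0.05 in Quaking KO and -0.61 ± 0.04 in the Sam68-labelled line. The difference of the Sam68-labelled line at day 0, -0.12 ± 0.03 (adjusted p = 0.002), was not called among protein-coding genes only (-0.06). Per kilobase of exon, the ratio of Srebf2 to Srebf1 level was 1.59 ± 0.07 in wild type at day 0 and 0.929 ± 0.009 in the Sam68-labelled line. At day 3 it was 1.22 ± 0.03 and 1.23 ± 0.02 in the same lines.

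Scap, the escort of SREBP, averaged 56.8 ± 2.94, 69.9 ± 2.93 and 49.3 ± 3.12 CPM over the 3 days in wild type, 53.7 ± 2.22, 65.2 ± 0.88 and 57.5 ± 1.49 in Quaking KO and 51.5 ± 1.53, 62.8 ± 0.85 and 58.9 ± 2.85 in the Sam68-labelled line. It had the smallest rise of the 31 genes at day 3 in wild type, 0.33 ± 0.07 (adjusted p = 0.00095), with 0.29 ± 0.04 in Quaking KO and 0.28 ± 0.04 in the Sam68-labelled line. Its fall at day 10 was -0.50 ± 0.07 in wild type and -0.14 ± 0.04 in Quaking KO, and in the Sam68-labelled line the value was -0.08 ± 0.04 (adjusted p = 0.057), not called. In that last comparison Scd2 went from 0.239 to 0.052 among protein-coding genes only, and the value of Scap under that setting was not read. Against wild type, the Sam68-labelled line was at -0.14 ± 0.04 (adjusted p = 0.005) at day 3, which was not called among protein-coding genes only (-0.08), and at 0.21 ± 0.06 (adjusted p = 0.012) at day 10. Of its windows, 10.0% occur in the overlapping gene model 5830462I19Rik.

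Stard4, which carries cholesterol between membranes in the cytosol, rose at day 3 in every line and again at day 10 in wild type and the Sam68-labelled line. In wild type it was at 21.5, 20.2 and 18.7 CPM at day 0, 50.3, 51.1 and 50.2 at day 3 and 90.3, 62.3 and 50.6 at day 10. Levels in Quaking KO were 18.7, 19.2 and 21.2, 49, 53 and 61.5 and 50.7, 45.1 and 49.7 CPM. The Sam68-labelled libraries held 28.4, 29.1 and 29.5, 61.8, 62.9 and 60.5 and 101, 103 and 89.5 CPM. The Sam68-labelled line was clear of wild type at days 0 and 3, and at day 10 replicate 1 of wild type reached its range. The differences were 0.60 ± 0.05 (adjusted p = 9.7e-09), 0.30 ± 0.06 (adjusted p = 0.00043) and 0.48 ± 0.17 (adjusted p = 0.033). At day 10 the value without wild-type replicate 1 was 0.76, and the call was lost without Sam68-labelled replicates 1 (0.48) or 2 (0.48) or wild-type replicates 2 (0.43) or 3 (0.33), and when only the 6 libraries compared were fitted (0.475). Quaking KO at day 10 was at -0.51 ± 0.17 (adjusted p = 0.081), not called.

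**Figure D4:**
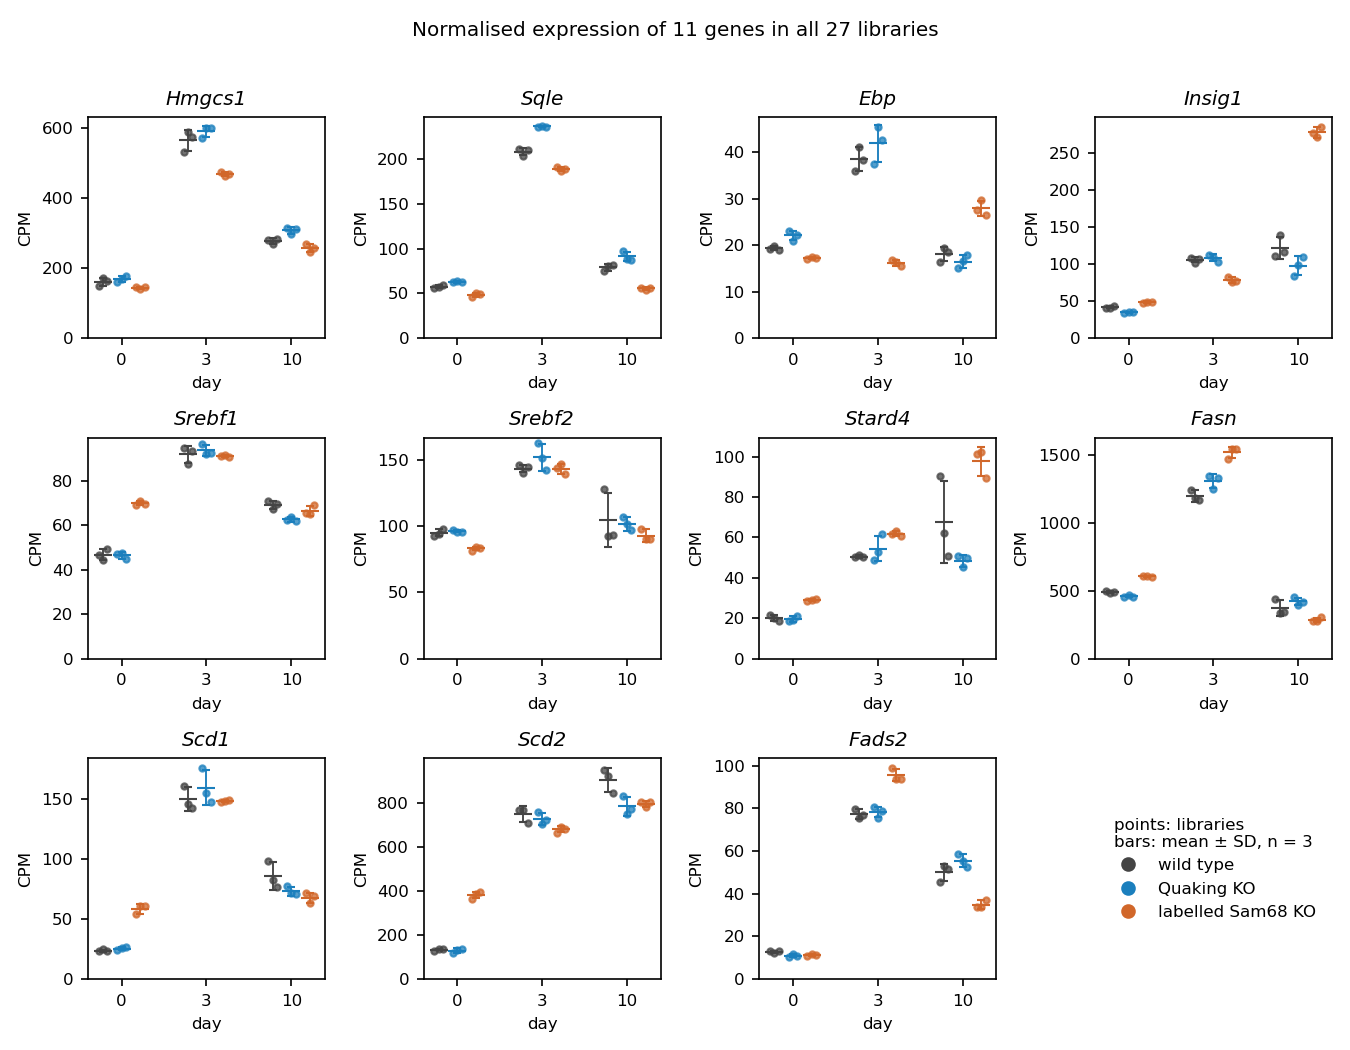
CPM (vertical axes, each from 0) of 11 genes by day, with 1 point per library and bars for the mean ± SD of 3 libraries of wild type (grey), Quaking KO (blue) and the Sam68-labelled line (orange). The Sam68-labelled libraries stand apart in Scd1 and Scd2 at day 0, in Ebp at days 3 and 10 and in Insig1 at day 10, and wild type at day 10 is widely spread in Stard4 and Srebf2.

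Fatty acid synthesis is carried out by Acly, which makes cytosolic acetyl-CoA from citrate, Acaca, which carboxylates it to malonyl-CoA, and Fasn, which builds the chain. Fasn was at 498, 480.3 and 488 CPM at day 0, 1243, 1179 and 1166 at day 3 and 437, 335 and 339 at day 10 in wild type. In Quaking KO it was at 454, 466 and 454, 1343, 1248 and 1332 and 451, 397 and 415 CPM. Levels in the Sam68-labelled line were 606, 608 and 599.7, 1471, 1542 and 1539.7 and 278, 276 and 303 CPM. The Sam68-labelled line thus had the highest Fasn at days 0 and 3 and the lowest at day 10, without overlap. Its differences from wild type were 0.38 ± 0.03 (adjusted p = 4.5e-10), 0.36 ± 0.05 (adjusted p = 6.6e-06) and -0.42 ± 0.10 (adjusted p = 0.0059). The fall from day 3 to day 10 was -1.69 ± 0.09 in wild type, -1.59 ± 0.05 in Quaking KO and -2.40 ± 0.04 in the Sam68-labelled line, and the difference between the last line and wild type was -0.70 ± 0.13 (adjusted p = 0.00033).

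Acaca moved as Fasn did. It averaged 121 ± 3.64, 218 ± 9.02 and 97.7 ± 9.67 CPM over the days in wild type, 86.3 ± 1.51, 227 ± 9.15 and 109 ± 7.45 in Quaking KO and 153 ± 0.55, 255 ± 6.62 and 70.6 ± 2.73 in the Sam68-labelled line. The Sam68-labelled line differed by 0.41 ± 0.03, 0.24 ± 0.05 and -0.51 ± 0.08 (adjusted p = 0.00027), again higher at days 0 and 3 and lower at day 10. In Quaking KO at day 0 Acaca had the largest difference of the 31 genes. Of its windows, 30.4% occur elsewhere, chiefly in the gene model Gm5182. Acly, the most abundant of the 31 genes per kilobase in wild type at days 0 and 3, averaged 511 ± 19.2, 759 ± 4.13 and 373 ± 21 CPM in wild type, 474 ± 8.72, 838 ± 9.49 and 422 ± 1.91 in Quaking KO and 385 ± 2.58, 707 ± 7.75 and 329.6 ± 4.54 in the Sam68-labelled line. It went against Fasn and Acaca in the Sam68-labelled line, being lower at every day, at -0.34 ± 0.03 (adjusted p = 4.9e-09), -0.09 ± 0.04 (adjusted p = 0.046) and -0.22 ± 0.06 (adjusted p = 0.0079). The small difference at day 3 was lost without any single Sam68-labelled day 3 library (-0.08 to -0.10) or without wild-type day 3 replicates 2 (-0.10) or 3 (-0.09) and with a replicate block (-0.10), and was -0.03 among protein-coding genes only. At day 10 against day 0 in wild type all 3 genes were lower, Acly at -0.42 ± 0.07, Fasn at -0.37 ± 0.09 and Acaca at -0.27 ± 0.07.

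The stearoyl-CoA desaturases put the double bond into saturated fatty acyl chains. Scd2 (chr19:44293674-44306864, plus strand) was at 129, 136 and 135 CPM at day 0, 767, 768 and 706 at day 3 and 946, 922 and 842 at day 10 in wild type. The Quaking KO libraries held 118, 133 and 136, 755, 702 and 722 and 828, 747 and 771 CPM. The Sam68-labelled line had 364, 386 and 393, 664, 691 and 678 and 803, 778 and 801 CPM. The Sam68-labelled stem cells were far above both other lines, and from day 3 the 3 lines lay close together. The difference was 1.59 ± 0.04 (adjusted p = 4.7e-16) at day 0, -0.13 ± 0.05 (adjusted p = 0.023) at day 3 and -0.23 ± 0.07 (adjusted p = 0.022) at day 10. The day 3 call ended without wild-type day 3 replicate 2 (-0.12) or Sam68-labelled day 3 replicate 1 (-0.11) and among protein-coding genes only (-0.06).

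Scd1 (chr19:44394455-44407879, minus strand), which lies near Scd2, showed the same early difference. It was at 23.3, 24.7 and 23.2 CPM at day 0, 161, 146 and 143 at day 3 and 98.6, 82.1 and 76.5 at day 10 in wild type. Levels in Quaking KO were 23.8, 25.5 and 26.8, 176, 155 and 148 and 77.5, 71.9 and 70.4 CPM. The Sam68-labelled libraries held 53.9, 61 and 60.6, 148, 148 and 149 and 71.3, 63 and 68.8 CPM. At day 0 every Sam68-labelled library was clearly above every other library, and at day 3 the lines overlapped. The differences were 1.38 ± 0.05 (adjusted p = 3.6e-14), -0.00 ± 0.06 (adjusted p = 0.97) and -0.39 ± 0.09 (adjusted p = 0.0053) at days 0, 3 and 10. Unlike Scd2, Scd1 fell after day 3, at -0.80 ± 0.08 in wild type, -1.08 ± 0.07 in Quaking KO and -1.12 ± 0.05 in the Sam68-labelled line. Per kilobase, the level of Scd2 was 5.03 ± 0.16 times that of Scd1 in wild type at day 0, 4.47 ± 0.23 times at day 3 and 9.50 ± 0.80 times at day 10. In the Sam68-labelled line the ratios were 5.84 ± 0.20, 4.09 ± 0.08 and 10.5 ± 0.49. The related genes Scd3 and Scd4 were under 1 CPM in every library, and 4.6% of the Scd1 windows and 4.0% of the Scd2 windows occur in other genes.

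Markers of other cell types differed between the same stem cell libraries. Of all genes tested, 36.5% were called higher and 37.9% lower in the Sam68-labelled line than in wild type at day 0. In the Sam68-labelled line at day 0, 5 of the 7 tested visceral endoderm and yolk sac markers were higher and 2 lower, and their summed level was 293 to 301 CPM against 57.9 to 62.7 in wild type and 40.8 to 44.6 in Quaking KO. Afp and Ttr, which define that tissue, were at or below 0.0735 CPM in every day 0 library, and Apoa4 had no count in any Sam68-labelled or Quaking KO library of that day. All 5 parietal endoderm markers were higher, summing to 1718 to 1833 against 574 to 624 CPM. All 4 stem cell markers were lower, summing to 1719.7 to 1754 against 2478 to 2638 CPM. The part of these markers in the differences of Scd1, Scd2, Srebf1 and Stard4 at day 0 was not tested. The same lists also differed at day 3. Stem cell markers summed to 796 to 842 CPM in the Sam68-labelled line against 1242 to 1328 in wild type. Visceral endoderm and yolk sac markers summed to 832 to 936 against 301 to 336 CPM, and parietal endoderm markers to 636 to 732 against 290 to 322 CPM. The part of these in the day 3 values of the members was not tested.

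Fads1 and Fads2 insert further double bonds into polyunsaturated chains. Fads2 was at 13, 12.1 and 13.2 CPM at day 0, 79.9, 75.3 and 76.9 at day 3 and 45.3, 53.2 and 51.6 at day 10 in wild type. In Quaking KO it was at 10.3, 11.6 and 11, 80.5, 75.5 and 78.9 and 58.5, 55.3 and 52.4 CPM. Levels in the Sam68-labelled line were 10.6, 11.7 and 11.2, 98.9, 93.9 and 94 and 33.8, 33.7 and 37.2 CPM. The Sam68-labelled line had the highest day 3 level and the lowest day 10 level, at 0.32 ± 0.04 (adjusted p = 4.9e-06) and -0.56 ± 0.07 (adjusted p = 7e-05) against wild type. Its day 3 rise, 3.09 ± 0.05, was the largest of the 31 genes in that line, beside 2.85 ± 0.06 in Quaking KO. Fads1 averaged 49.2 ± 2.92, 98.2 ± 6.93 and 136 ± 0.41 CPM over the days in wild type, 48.5 ± 1.88, 98.4 ± 8.21 and 148 ± 10.1 in Quaking KO and 45.8 ± 2.37, 103 ± 2.31 and 91 ± 4.73 in the Sam68-labelled line. Fads1 kept rising after day 3 in wild type and Quaking KO but was lower at day 10 than at day 3 in the Sam68-labelled line, at -0.17 ± 0.04 (adjusted p = 0.0013), and the difference in this change between that line and wild type was -0.63 ± 0.08 (adjusted p = 1.5e-05). Per kilobase, the Fads1 level was 2.65 ± 0.21 times that of Fads2 at day 0, 0.869 ± 0.035 times at day 3 and 1.88 ± 0.17 times at day 10 in wild type.

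Elovl6, which lengthens palmitate, had the opposite end point from the desaturases. It averaged 177 ± 1.49, 271 ± 10.1 and 97.7 ± 2.22 CPM over the days in wild type, 184 ± 7.94, 293 ± 8.48 and 104 ± 8.40 in Quaking KO and 223 ± 3.39, 306 ± 11.2 and 96.7 ± 1.90 in the Sam68-labelled line. From day 3 to day 10 it fell, at -1.46 ± 0.06 in wild type, -1.45 ± 0.06 in Quaking KO and -1.65 ± 0.04 in the Sam68-labelled line as log2 fold changes, and at day 10 wild type stood at -0.82 ± 0.06 (adjusted p = 1.3e-08) against day 0. In the Sam68-labelled line it was higher at day 0, 0.40 ± 0.03, and at day 3, 0.19 ± 0.05, and was at -0.06 ± 0.06 (adjusted p = 0.43) at day 10, not called.

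The order of levels was read per kilobase of exon. In wild-type stem cells Acly led at 96.9 ± 3.63 CPM per kb, followed by Fasn at 44.6 ± 0.82, Hmgcs1 at 35.0 ± 2.42 and Acat2 at 33.5 ± 1.41, the last pair within 1 SD of each other. At day 3 the order was Acly at 144 ± 0.78, Scd2 at 137 ± 6.48, Hmgcs1 at 123 ± 6.45 and Fasn at 109 ± 3.76 CPM per kb, with each step wider than 1 SD. At day 10 Scd2 led at 165 ± 9.93 CPM per kb. Fdps was the lowest at all 3 days, at 0.608 ± 0.07, 2.07 ± 0.19 and 0.868 ± 0.06 CPM per kb.

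The 4 tests of whether the change between days differed between a knockout line and wild type were read for each member. For Quaking KO, 6 members were higher in the change from day 0 to day 3, beside 9.45% of all genes, and Acaca led at 0.55 ± 0.06 (adjusted p = 4.7e-06). In the change from day 3 to day 10 only Scap was called, at 0.31 ± 0.08 (adjusted p = 0.046), beside 2.03%, while 6 members had an unadjusted p under 0.05. The call of Scap was lost without any single library of the 12 other than wild-type day 10 replicates 1 and 3, with values from 0.29 to 0.34, and with RLE scaling (0.33) or no filter on low counts (0.32). For the Sam68-labelled line, 3 members were higher and 11 lower in the change from day 0 to day 3, beside 18% and 15.9%. In the change from day 3 to day 10, 4 were higher and 9 lower, beside 30.3% and 23.9%, with 3 and 15 among protein-coding genes only and 6 and 7 with no filter on low counts. Fdps, Ebp and Insig1 had the largest of these differences, at -1.505 ± 0.15, 1.90 ± 0.10 and 1.64 ± 0.10. The Fdps value is uncertain, because part of its sequence occurs in other genes. The comparisons with wild type share the wild-type libraries.

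How alike the courses were was described by Pearson's r of log2 levels over the 9 group means, which share their normalisation. The median over the 153 pairs of the 18 sterol enzymes was 0.89, and over all 465 pairs of members 0.77. Ebp had a median of 0.51 with the other members, Stard4 0.32 and Insig1 0.23. The levels of Insig1 and Stard4 ran together, at r = 0.95, and those of Scd1 and Scd2 at 0.86.

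Other genes of the same pathways were read in 5 lists, and their counts stand beside these shares of all genes called higher and lower. In wild type the shares were 30.8% and 30.1% at day 3 against day 0, 39.6% and 36.5% at day 10 against day 3 and 41.4% and 39.4% at day 10 against day 0. In Quaking KO against wild type they were 19.4% and 20.3%, 3.08% and 3.93%, and 4.96% and 6.71% at days 0, 3 and 10. For the Sam68-labelled line against wild type they were 36.5% and 37.9%, 36% and 37.1%, and 22.8% and 27.8%.

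Genes that process and degrade SREBP moved in both directions at day 3. This list held 11 genes other than the 31, all tested. In wild type 3 were higher and 4 lower at day 3 than at day 0, with the ubiquitin ligase Rnf145 at 1.01 ± 0.06. At day 10 against day 3, 8 were higher and 2 lower, led by Sec24d, a coat protein of vesicles leaving the endoplasmic reticulum, at 1.00 ± 0.06 and Fbxw7, which targets nuclear SREBP for degradation, at -0.89 ± 0.06. At day 10 against day 0, 7 were higher and 1 lower, with Fbxw7 at -1.22 ± 0.06. In Quaking KO against wild type, 3 were higher and 3 lower at day 0, led by Rnf145 at -0.32 ± 0.03 and Insig2 at 0.28 ± 0.06. At day 3 Mbtps2, a protease that cuts SREBP, was at 0.18 ± 0.05 and Erlin2 at -0.19 ± 0.04, and at day 10, 3 were higher and 1 lower, with Insig2 at -0.34 ± 0.08. Of these genes in the Sam68-labelled line, 4 were higher and 4 lower at day 0, near the 36.5% and 37.9% of all genes, led by Rnf145 at 0.54 ± 0.03 and Sec23a at -0.30 ± 0.03. At day 3, 3 were higher and 5 lower, with Erlin2 at -0.40 ± 0.04, and at day 10, 7 were higher and 1 lower, led by Sec24d at 0.51 ± 0.06 and Erlin2 at 0.49 ± 0.05.

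Genes of sterol uptake, export and storage moved in both directions. Of 14 tested, 9 were higher and 3 lower at day 3 than at day 0 in wild type, led by the cholesterol exporter Abca1, at -4.55 ± 0.11, and the cholesterol-esterifying enzyme Soat1, at 2.75 ± 0.06. Abca1 then rose by 5.64 ± 0.12 at day 10 and Mylip, a ligase that degrades lipoprotein receptors, by 3.61 ± 0.11, among 8 higher and 5 lower. Abca1 thus ran opposite to the synthesis enzymes in wild type at both steps. Compared with day 0, 10 were higher and 3 lower at day 10, led by Mylip at 3.48 ± 0.11 and the lipoprotein receptor Vldlr at 2.88 ± 0.09. In Quaking KO 4 were higher and 6 lower at day 0, led by the lysosomal lipase Lipa at -1.02 ± 0.07 and Soat1 at -0.61 ± 0.03. At day 3 only Lipa was called, at -0.27 ± 0.06, and at day 10, 1 was higher and 2 lower, led by Nr1h3, the sterol receptor LXR alpha, at 0.58 ± 0.16 and Mylip at -0.39 ± 0.07. Against wild type, the Sam68-labelled line had 4 higher and 7 lower at day 0, beside 36.5% and 37.9% of all genes, led by Abca1 at 1.35 ± 0.04 and Mylip at -1.08 ± 0.13. At day 3, 3 were higher and 7 lower, led by the exporter Abcg1 at 1.17 ± 0.13 and Vldlr at -1.16 ± 0.09, and at day 10, 7 were higher and 4 lower, led by Vldlr at -0.92 ± 0.08 and Abca1 at -0.71 ± 0.11.

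Enzymes that use mevalonate for other products moved in both directions. Of 10 tested, 3 were higher and 4 lower at day 3 in wild type, led by the farnesyltransferase subunit Fntb at -0.48 ± 0.06 and the dolichol synthesis enzyme Dhdds at 0.46 ± 0.07. From day 3 to day 10, 3 were higher and 4 lower, led by Pdss1, which makes the side chain of ubiquinone, at -1.51 ± 0.07 and Dhdds at 0.66 ± 0.07, and against day 0 they were at -1.90 ± 0.07 and 1.11 ± 0.07, among 1 higher and 4 lower. In Quaking KO Coq2, another ubiquinone enzyme, was called lower at each day, at -0.28 ± 0.04, -0.27 ± 0.05 and -0.26 ± 0.06, with Fntb higher at day 0 at 0.39 ± 0.04, among 1 higher and 2 lower at day 0. In the Sam68-labelled line 6 were higher and 2 lower at day 0, beside 36.5% and 37.9% of all genes, led by Fnta at -0.58 ± 0.03 and Dhdds at 0.44 ± 0.05. At day 3, 2 were higher and 4 lower, led by Fnta at -0.45 ± 0.04 and Coq2 at -0.26 ± 0.05, and at day 10, 3 were higher and 1 lower, led by Nus1, the partner of Dhdds, at 0.62 ± 0.10 and Ggps1 at -0.28 ± 0.06.

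Other genes of fatty acid synthesis and esterification partly followed the members. Of 17 tested, 11 were higher and 4 lower at day 3 in wild type, led by the acyl-CoA synthetase Acsl3 at 2.08 ± 0.08 and the lipogenic gene Thrsp at -1.73 ± 0.35. Between days 3 and 10, 5 were higher and 9 lower, led by Mlxipl, the transcription factor ChREBP, at -1.96 ± 0.22 and Thrsp at -1.52 ± 0.51, and against day 0 these were at -1.97 ± 0.22 and -3.25 ± 0.41, among 10 higher and 5 lower. In Quaking KO 4 were higher and 4 lower at day 0, led by Mlxipl at -0.72 ± 0.11 and Thrsp at 0.72 ± 0.21. At day 3, 5 were higher and 1 lower, led by Acacb, a second acetyl-CoA carboxylase, at 0.29 ± 0.08 and the citrate carrier Slc25a1 at 0.25 ± 0.04. At day 10, 1 was higher and 4 lower of 16, led by Mlxipl at -0.87 ± 0.24 and malic enzyme Me1 at -0.84 ± 0.10. Of these genes in the Sam68-labelled line, 5 were higher and 9 lower at day 0, beside 36.5% and 37.9% of all genes, led by Thrsp at -0.95 ± 0.26 and the elongase Elovl7 at 0.84 ± 0.07. At day 3, 4 were higher and 9 lower, led by Mlxipl at 0.72 ± 0.14 and its partner Mlx at -0.55 ± 0.05, and at day 10, 9 were higher and 2 lower of 16, led by Elovl7 at 1.21 ± 0.11 and Mlxipl at -0.90 ± 0.24.

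Genes of fatty acid oxidation, the route that burns the same chains, were even at day 3. Of 12 tested, 4 were higher and 4 lower in wild type, with the acyl-CoA dehydrogenase Acadl at 1.89 ± 0.09. At day 10 against day 3, 8 were higher and 2 lower, with the lipid-sensing receptor Ppara at 2.33 ± 0.29, and against day 0 it was at 1.53 ± 0.27, among 7 higher and 2 lower. The coactivator Ppargc1a had no count in any day 0 library, so no fold is given for it in the course, and it was at 5.05 to 6.57 CPM in wild type at day 10. In Quaking KO 5 of 11 were higher and 1 lower at day 0, led by Acadl at -0.55 ± 0.07 and the carnitine carrier Slc25a20 at 0.26 ± 0.04. At day 10 the 1 call among 12 was Ppargc1a, at -1.19 ± 0.16. Against wild type, the Sam68-labelled line had 10 of 11 lower at day 0, beside 37.9% of all genes, led by Slc25a20 at -0.70 ± 0.04 and Ppara at -0.68 ± 0.27. At day 3, 9 of 11 were lower, led by Hadhb at -0.67 ± 0.05 and Slc25a20 at -0.66 ± 0.06, and at day 10, 5 were higher and 1 lower of 12, led by Ppargc1a at 0.80 ± 0.15 and Cpt2 at 0.78 ± 0.08. Both Slc25a20 and Cpt2 bring fatty acids into mitochondria.

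Day 10 embryoid bodies held transcripts of several tissues, in amounts that differed between the lines. The counts below stand beside 4.96% of all genes called higher and 6.71% lower in Quaking KO than in wild type. For the Sam68-labelled line these shares were 22.8% and 27.8%. Blood and macrophage markers summed to 263 to 325 CPM in wild type, 248 to 271 in Quaking KO and 47.7 to 88.4 in the Sam68-labelled line, where 5 of 5 were lower than in wild type. Cardiomyocyte markers summed to 616 to 682, 133 to 284 and 1136 to 1274 CPM, with 3 of 5 lower in Quaking KO and 3 of 5 higher in the Sam68-labelled line. Parietal endoderm markers summed to 1956 to 2115, 1517 to 2055 and 4482 to 5168 CPM, with 4 of 5 higher in the Sam68-labelled line. Visceral endoderm and yolk sac markers summed to 2131 to 2995, 1488 to 1702 and 2661 to 3524 CPM, with 8 of 10 lower in Quaking KO and 7 of 10 higher and 2 lower in the Sam68-labelled line. Fibroblast markers summed to 4611 to 5898, 3681 to 5659.9 and 2093 to 3191 CPM, with 0 of 3 called in Quaking KO and 2 of 3 lower in the Sam68-labelled line. Endothelial markers summed to 225 to 239, 172 to 197 and 139.7 to 149 CPM, with 2 of 3 lower in each knockout line. Neural markers summed to 70.7 to 80.9, 89.9 to 134 and 51.9 to 64.6 CPM, with 2 of 5 higher in Quaking KO and 3 of 5 lower in the Sam68-labelled line. Adipocyte markers, from a cell type rich in these enzymes, summed to no more than 4.01 CPM in any library, and Adipoq was at or below 0.182 CPM throughout. The part of these tissues in the day 10 values of the 31 genes was not tested. In wild type the sums over the 3 days in order were 2478 to 2638, 1242 to 1328 and 54.2 to 68.9 CPM for stem cell markers and, for markers of dividing cells, 2351 to 2425, 1909 to 2013 and 1373 to 1426 CPM.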

How the data were processed

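The deposited files hold the authors' raw counts of reads for every gene, unnormalised. Per the submitters' processing notes, bcl2fastq 2.17.1.14 and STAR 2.5.3a were used on GRCm38. Libraries were stranded, per the labels' protocols; how reads were assigned to genes, and with which strand setting, is not given in the sources used here. Of the 51826 identifiers, 51633 (99.6%) matched GENCODE release 21 on GRCm38. Genes were kept by filterByExpr (minimum count 10, total 15), scaled by TMM and tested with edgeR 4.0.16 (limma 3.58.1, R 4.3.3): the 9 libraries of each day together, the 3 days of each line together, and each interaction on 12 libraries. CPM were computed from the deposited counts with effective library sizes over all 27 libraries and no pseudocount. DESeq2 1.42.0, RLE scaling, no filter, protein-coding genes only, a replicate block and leaving out each library were alternatives. Shared sequence was counted as windows of 50 bases of a gene's transcripts found in another gene's. Deviations of same-numbered replicates correlated above 0.1 in some pairs but in no comparison in all 3, so they were not treated as paired in the main fits.

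The members and lists were chosen with earlier results of these data known. Genes named per comparison are the 5 largest called rises and falls, called genes against their role, and called regulators; other pathway genes are the 2 largest called per list, of which some values are not reported here. The p-values measure the spread between these samples, which may be partly technical. With 3 libraries a group an SD is itself imprecise. The fit was tested on simulated data before use. In the day 0 fit it called 48.1% of 1.2-fold and 66% of 1.5-fold changes in the right direction. In the day 10 fit it called 1.3% and 42.9%, and in the wild-type course 2.6% and 50.9%. A gene not called can thus still differ.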

Additional observations from a re-analysis of the deposited data

Results flagged for a closer look

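These results were singled out because the change between days in a knockout line differed from that in wild type by a test of the interaction itself, in edgeR with adjustment over all genes. In Quaking KO the change from day 0 to day 3 exceeded that of wild type for Acaca by 0.546 (log2), for Insig1 by 0.289, for Acly by 0.256, for Fads2 by 0.242 and for Fasn by 0.227. The call of Fads2 was lost without any of 8 of the 12 libraries, with values from 0.201 to 0.242. In the change from day 3 to day 10, Scap exceeded wild type by 0.314.

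In the Sam68-labelled line the change from day 0 to day 3 exceeded that of wild type for Fads2 by 0.455, for Acly by 0.266 and for Srebf2 by 0.150. The call of Srebf2 was lost without Sam68-labelled day 0 replicate 1 (0.135) or day 3 replicate 2 (0.135), or without wild-type day 0 replicates 2 (0.137) or 3 (0.117), or with no filter on low counts (0.116). It was below that of wild type for Scd2 (-1.695), Scd1 (-1.356), Ebp (-1.125), Insig1 (-0.696) and Srebf1 (-0.635). In the change from day 3 to day 10, the line exceeded wild type for Ebp by 1.902, for Insig1 by 1.640, for Scap by 0.435 and for Sc5d by 0.285. Scap stood at 0.255 among protein-coding genes only. Sc5d was not called there (0.105), nor without Sam68-labelled day 3 replicates 2 (0.185) or 3 (0.177) or wild-type day 3 replicate 2 (0.188). The line was below wild type for Fdps (-1.505), Fads2 (-0.801), Fasn (-0.695), Acaca (-0.671) and Fads1 (-0.632). As said above, the Fdps level is uncertain because of shared sequence.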

How the results depend on the processing

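Of 1859 alternative values for the 147 gene values named, 1782 kept their direction and side of the threshold, 77 kept the direction and lost the call, and 0 changed sign. Among protein-coding genes only, some values of 1 comparison shifted by like amounts. In the Sam68-labelled line against wild type at day 3, Acly went from -0.091 to -0.026 and Scd2 from -0.128 to -0.063. Scap went from -0.142 to -0.078 in the same comparison. Small values of that line can thus depend on this setting. Of 223 alternative counts of called members, 200 were within 1.5 times the reported count. This compared totals and not the split into higher and lower. That split changed with the setting in the Sam68-labelled line, as given above. The totals outside that range were all in Quaking KO. At day 3 the count of 7 became 12 with a replicate block on the 6 libraries compared and ranged from 4 to 8 when each library was left out. At day 10 the count of 1 became 3 with no filter on low counts (1 higher, 2 lower), 4 among protein-coding genes only (1 higher, 3 lower) and 8 in DESeq2, and ranged from 0 to 4 when each library was left out. For the change from day 3 to day 10 the count of 1 became 0 with RLE scaling, 2 with no filter (0 higher, 2 lower) and 2 with the replicate block, and ranged from 0 to 2. The causes were not tested. Same-numbered replicates correlated at -0.073 to 0.158 in their deviations, in 0 of 13 comparisons all above 0.1, so the samples were not treated as paired. This cannot show that they are unpaired. The highest value, 0.158, was that of replicate 1 of Quaking KO and wild type at day 3, which also stood apart in mt-Rnr2. Each knockout was 1 line, and label and library batch cannot be told apart for the Sam68-labelled line.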
